A study of Mus musculus with 12 samples.

Results

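The 9 genes described here encode or regulate the machinery by which MHC class II molecules present peptides: the classical chains H2-Aa, H2-Ab1 and H2-Eb1, the invariant chain Cd74, the transactivator Ciita, and the peptide-editing genes H2-DMa, H2-DMb1, H2-DMb2 and H2-Oa. They were chosen by name, as the rows of the table of all 55281 annotated mouse genes whose symbol equals one of these 9 names, and each name matched 1 row. Expression was measured by RNA sequencing of whole gonadal white adipose tissue (GWAT) of male mice aged 22 to 24 weeks. HoipA-KO mice carried Hoip fl/fl and AdipoQ.Cre+, so that HOIP (gene Rnf31), the catalytic subunit of the linear ubiquitin chain assembly complex, was deleted in adipocytes, and WT littermates carried Hoip fl/fl and AdipoQ.Cre-. Both genotypes were fed from 6 weeks of age for 16 weeks with a control diet (CD, 14% fat) or a high-fat diet (HFD, 60% fat). Each of the 4 groups has 3 libraries, and each library holds RNA pooled from 3 mice, so that SD and p-values measure the spread between pools. The floxed alleles are shared by all groups. The Cre driver acts in adipocytes, while the tissue holds all its cell types, so Rnf31 itself (12 to 22.5 CPM over the 12 libraries, where CPM are read counts scaled to 1 common library size) does not check the genotype.

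MHC class II molecules carry peptides from engulfed proteins to the surface of antigen-presenting cells, where CD4 T cells read them. The alpha and beta chains pair in the endoplasmic reticulum around the invariant chain, which is later trimmed by proteases to the fragment CLIP, and H2-DM exchanges CLIP for peptide while H2-O holds H2-DM back. Ciita is the master regulator of these genes and binds no DNA itself but joins the factors that sit on their promoters. In adipose tissue, macrophages, dendritic cells and B cells are the usual class II expressing cells, and adipocytes can express class II genes in obesity.

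Libraries held 30513446 to 60540225 estimated counts. One of them, WT CD replicate 3, had 5191 genes at more than 8 times their level in every other library, and these took 20.1% of its counts. It is left out of the tests, as it is in the tables of the study. Its values are given beside the others for the members and for part of the other genes. WT CD replicate 2 had 444 such genes with 6.46% of its counts. Markers of epididymal epithelium, a tissue next to this fat pad, summed to 19100 CPM in WT CD replicate 2 against 0.755 in WT CD replicate 1, and spermatogenic markers summed to 6816 CPM in replicate 3. The epididymal sum was 1608 CPM in HoipA-KO HFD replicate 1, which had 74 genes above 8 times every other library with 1.13% of its counts, and at most 95.4 CPM in the remaining 10 libraries. Without that library no member was called in the comparisons of HoipA-KO HFD with WT HFD or with HoipA-KO CD, as with it. The comparisons with WT CD rest on WT CD replicates 1 and 2. Adipocyte markers such as Adipoq were present in all libraries (203 to 3541 CPM).

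All members except Ciita and Cd74 lie in the class II region of chromosome 17 (GRCm38), where 7 of them occupy 224 kb from H2-Oa (start 34092340) to H2-Eb1 (end 34316674). Ciita lies on chromosome 16 (10480059 to 10528418, plus strand). Along chromosome 17 the order is H2-Oa, H2-DMa (34119541 to 34139101), H2-DMb2 (34143307 to 34151555), H2-DMb1 (34153072 to 34160230), H2-Ab1 (34257689 to 34269419), H2-Aa (34282744 to 34287823) and H2-Eb1, all on the plus strand except H2-Aa. Class II promoters are known to share an X box, which the RFX complex binds, and downstream of it a Y box with the letters ATTGG on either strand, which NF-Y binds. RefSeq promoter entries (GRCm38.p6, 250 bases before to 50 after the start) matched 6 members. The 60-base windows that end 5 bases past ATTGG are shown because they put the members that moved together and those that did not beside each other. The capitals mark ATTGG and, upstream of it, either GCAAC or AACNGATG, letters that were picked after these windows were read.
H2-Aa, chr17:34287862-34287921, minus strand: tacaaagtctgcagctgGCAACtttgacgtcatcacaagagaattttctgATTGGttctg
H2-Eb1, chr17:34305758-34305817, plus strand: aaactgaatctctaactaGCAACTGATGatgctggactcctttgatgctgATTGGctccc
H2-DMb1, chr17:34153080-34153139, plus strand: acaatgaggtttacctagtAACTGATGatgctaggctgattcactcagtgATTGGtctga
H2-DMb2, chr17:34145109-34145168, plus strand: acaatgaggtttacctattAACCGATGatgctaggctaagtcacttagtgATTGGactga
H2-Oa, chr17:34092286-34092345, plus strand: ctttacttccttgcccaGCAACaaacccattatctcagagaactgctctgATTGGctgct

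In these 5 promoters ATTGG began 31 to 33 bases after the start of the upstream letters. In H2-Eb1 both upstream motifs were present and overlapped. The windows of H2-DMb1 and H2-DMb2, a pair of neighbouring paralogs, differed at 6 of 60 positions. Neither of the 2 entries for H2-DMa held such a pair on the strand of the gene, the only strand searched for the members. Counting both strands, 37.4% of 32851 promoters of the same length held ATTGG, 1.02% held GCAAC followed by ATTGG with 15 to 35 bases between them, and 0.0304% held AACNGATG followed by ATTGG with 12 to 35 bases between them. The promoters of H2-DMb2 and H2-Oa, whose levels did not follow those of the other members, held the letters as well. The matches describe letters only, and binding was not measured.

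Per length of exonic sequence, Cd74 had the highest level of the 9 genes in every group, with a mean of 209 CPM per kb in WT CD, 611 in WT HFD, 688 in CD-fed HoipA-KO and 966 in HFD-fed HoipA-KO. H2-Eb1, H2-Ab1 and H2-Aa followed with 51.6 to 76.7 CPM per kb in WT CD and 135 to 273 in the other groups. H2-DMb1 came next at 9.69 CPM per kb in WT CD and 43.5 to 56.4 elsewhere, then H2-DMa at 4.42 and 11.4 to 16.9. H2-DMb2 (1.96 to 2.42), Ciita (0.441 to 2.28) and H2-Oa (0.470 to 0.935) were the lowest in all groups. The lengths come from the annotated exons of all isoforms together and are long for Ciita and H2-DMa.

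**Figure D1:**
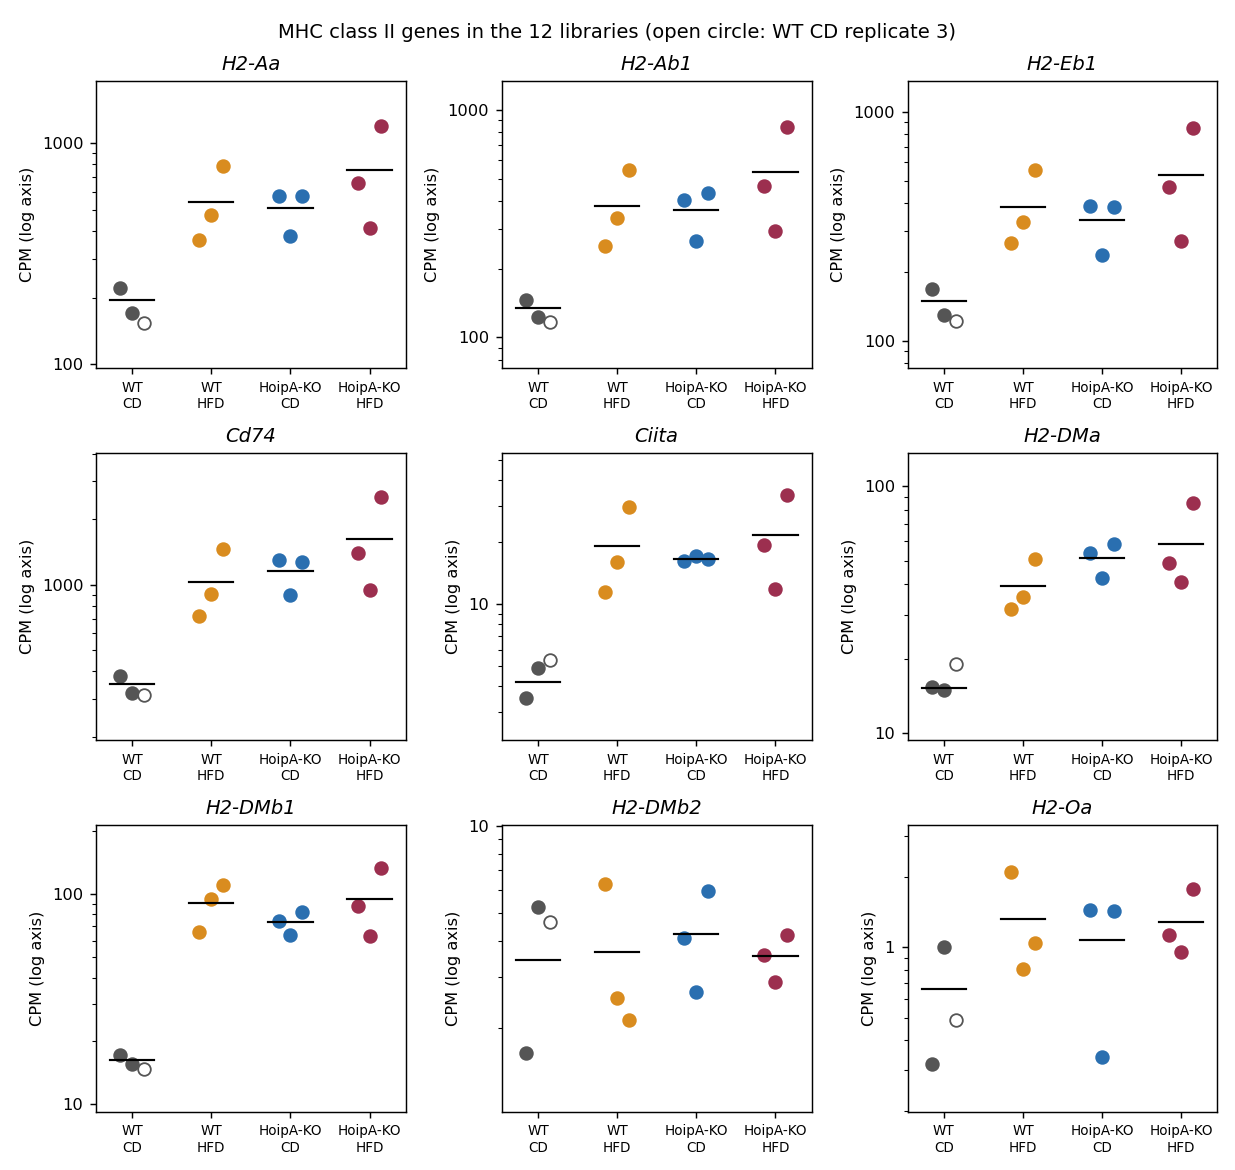
CPM of each of the 9 members in the 12 libraries, on a log axis, with 1 point per library and a line at the group mean, which for WT CD is the mean of replicates 1 and 2. For 7 members every WT CD library lies below every library of the other 3 groups, which overlap among themselves, while H2-DMb2 (1.63 to 6.30 CPM) and H2-Oa (0.317 to 2.09 CPM) overlap in all groups. The share of all genes in this joint order was not counted. By pairs of groups over 11 libraries, WT CD lay below HoipA-KO CD for 27.2% of all genes and below WT HFD for 24.1%.

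The first comparison asked what deletion of HOIP in adipocytes did to these transcripts on the control diet. In GWAT of CD-fed HoipA-KO mice, 6 of the 9 members were higher than in WT, with log2 fold changes of 1.41 to 2.20, and none was lower. The calls come from the quasi-likelihood test of edgeR, adjusted after Benjamini-Hochberg over all 18427 genes tested, at an adjusted p under 0.05, and 18.9% of all genes were called higher in this comparison. All 9 members passed the filter on low counts. The median log2 fold change of the members was 1.47, and that of all genes was -0.055. In 7 of 9 members every HoipA-KO CD library was above every WT CD library, which held for 27.2% of all genes.

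Cd74, whose product chaperones the chains and blocks their groove, was at 383 and 318 CPM in WT CD (311 in replicate 3) and at 1296, 899 and 1269 CPM in HoipA-KO CD. The 3 HoipA-KO pools were all above WT, by a log2 fold change of 1.75 ± 0.44 (SE, edgeR adjusted p = 0.0128). H2-Aa, the alpha chain of the I-A molecule, was at 221 and 170.3 CPM in WT CD (154 in replicate 3) and at 578, 380.3 and 575 CPM in HoipA-KO CD. The lowest HoipA-KO pool, replicate 2, was still above the highest WT pool, and the log2 fold change was 1.41 ± 0.47 (SE, edgeR adjusted p = 0.0381). H2-Ab1, its beta chain partner, was at 147 and 123 CPM in WT CD (117 in replicate 3) and at 402, 264 and 429.9 CPM in HoipA-KO CD, a log2 fold change of 1.47 ± 0.46 (SE, edgeR adjusted p = 0.0314). For both chains replicate 2 was the lowest HoipA-KO CD pool, and replicates 1 and 3 lay close together. H2-Eb1, the beta chain of the I-E molecule, was at 169 and 129 CPM in WT CD (121 in replicate 3) and at 387, 238 and 382 CPM in HoipA-KO CD. These pools did not overlap either, but the log2 fold change of 1.2 ± 0.48 (SE) did not pass the test (edgeR adjusted p = 0.0727). It passed with all 12 libraries (adjusted p = 0.0418 in edgeR) and with DESeq2 (adjusted p = 0.0283, where DESeq2 called 19.4% of all genes higher).

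Ciita was at 3.51 and 4.90 CPM in WT CD (5.34 in replicate 3) and at 16.2, 17.1 and 16.5 CPM in HoipA-KO CD. The 3 HoipA-KO pools lay close together, and the log2 fold change was 2.01 ± 0.49 (SE, edgeR adjusted p = 0.0113). Of the genes of H2-DM, the alpha chain gene H2-DMa was at 15.4 and 15.0 CPM in WT CD (19.1 in replicate 3) and at 53.4, 42.4 and 58.3 CPM in HoipA-KO CD, a log2 fold change of 1.78 ± 0.33 (SE, edgeR adjusted p = 0.00297). The beta chain gene H2-DMb1 was at 17.1 and 15.5 CPM in WT CD (14.8 in replicate 3) and at 74.2, 63.4 and 81.9 CPM in HoipA-KO CD. Its log2 fold change of 2.20 ± 0.32 (SE, edgeR adjusted p = 0.00105) was the largest estimate among the members, with a 95% interval of 1.47 to 2.92 that overlaps that of Ciita (0.91 to 3.12). The remaining editing genes behaved otherwise. H2-DMb2, a paralog of H2-DMb1, was at 1.63 and 5.22 CPM in WT CD (4.63 in replicate 3) and at 4.07, 2.65 and 5.95 CPM in HoipA-KO CD, with a log2 difference of 0.32 ± 0.59 (SE, edgeR adjusted p = 0.694). H2-Oa, the alpha chain of the H2-DM inhibitor H2-O, was at 0.317 and 1.01 CPM in WT CD (0.489 in replicate 3) and at 1.44, 0.338 and 1.43 CPM in HoipA-KO CD, with a log2 difference of 0.70 ± 0.72 (SE, edgeR adjusted p = 0.467). The groups overlapped for both genes.

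With only 2 WT CD libraries in the fit, single libraries decide some of these calls. Without WT CD replicate 1 or without WT CD replicate 2, 3 members were called higher, while 18.1% and 16% of all genes were. H2-DMa and H2-DMb1 were called in each of the 21 alternative fits run, while H2-Aa was no longer called when any one of 6 libraries was left out (edgeR adjusted p = 0.0549 to 0.151), H2-Ab1 any one of 4 (0.0739 to 0.124), Cd74 without WT CD replicate 2 (0.0605) and Ciita without WT CD replicate 1 (0.0606). With all 12 libraries 7 members were called higher (15.6% of all genes), with a median of 1.47 while the median of all genes moved to -0.21. In bulk tissue, more cells that express a gene and more RNA of it per cell cannot be told apart.

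**Figure D2:**
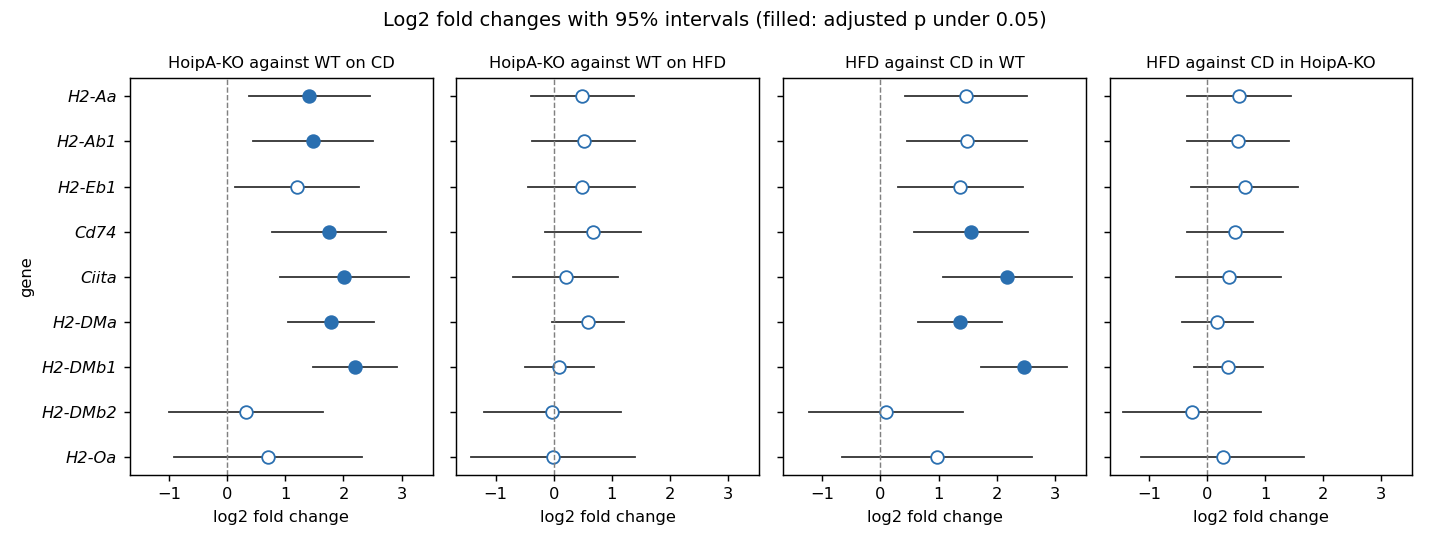
Log2 fold changes of the 9 members (x axis) in 4 comparisons, with 95% intervals from the edgeR fit of 11 libraries and filled points where the adjusted p was under 0.05. Filled points are found for 6 members in HoipA-KO against WT on CD and for 4 members in HFD against CD in WT, and for none in the 2 comparisons of HoipA-KO HFD.

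The genotypes were then compared on HFD. No member was called in either direction by edgeR, which called 4.2% of all genes higher and 7.62% lower. None had an unadjusted p under 0.05 in edgeR, against 31.5% of all genes, and DESeq2 called none, against 26% of all genes. The median log2 difference of the members was 0.48 (all genes 0.058), and 7 of 9 estimates were above 0. Cd74 was at 715, 909 and 1453 CPM in WT HFD and at 1398, 949.8 and 2518 CPM in HoipA-KO HFD. The groups overlapped, and the log2 difference of 0.68 had a 95% interval of -0.15 to 1.51 (edgeR adjusted p = 0.239). H2-Aa was at 364, 472 and 788 CPM in WT HFD and at 656, 413 and 1191 CPM in HoipA-KO HFD, a log2 difference of 0.49 with an interval of -0.40 to 1.38. H2-Ab1 (253, 335 and 543 CPM against 463, 294 and 838 CPM) and H2-Eb1 (268, 329.9 and 556 CPM against 468, 272 and 849.9 CPM) showed the same spread, with replicate 3 highest in both groups.

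H2-DMa was at 31.7, 35.5 and 51.0 CPM in WT HFD and at 48.8, 41.0 and 85.3 CPM in HoipA-KO HFD, a log2 difference of 0.58 (95% interval -0.031 to 1.2, edgeR adjusted p = 0.177). H2-DMb1 was at 65.9, 94.2 and 110.1 CPM in WT HFD and at 88.0, 63.3 and 133 CPM in HoipA-KO HFD, a log2 difference of 0.091 (interval -0.50 to 0.68). Ciita was at 11.4, 16.1 and 29.7 CPM in WT HFD and at 19.4, 11.9 and 33.9 CPM in HoipA-KO HFD, a log2 difference of 0.20 (interval -0.70 to 1.11). The groups overlapped for these 3 genes. H2-DMb2 was at 6.30, 2.54 and 2.13 CPM in WT HFD and at 3.57, 2.88 and 4.19 CPM in HoipA-KO HFD. H2-Oa was at 2.09, 0.807 and 1.05 CPM in WT HFD and at 1.13, 0.955 and 1.78 CPM in HoipA-KO HFD. Their log2 differences were -0.026 and -0.0063, whose sign changed with the scaling, with intervals of -1.21 to 1.16 and -1.42 to 1.40.

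The next comparison asked what HFD did in WT mice. In WT GWAT 4 of 9 members were higher on HFD than on CD and none was lower, where edgeR called 9.35% of all genes higher. These were H2-DMb1 (log2 fold change 2.47 ± 0.33, SE, edgeR adjusted p = 0.00617), Ciita (2.18 ± 0.50, adjusted p = 0.0211), H2-DMa (1.37 ± 0.32, adjusted p = 0.0232) and Cd74 (1.56 ± 0.44, adjusted p = 0.0427). The classical chains had log2 differences of 1.47 (H2-Aa), 1.49 (H2-Ab1) and 1.37 (H2-Eb1) with edgeR adjusted p = 0.0615, 0.0566 and 0.0818, all with an unadjusted p under 0.05. In this comparison 32.1% of all genes had an unadjusted p under 0.05. The WT HFD libraries were above the WT CD libraries for all 4 called genes and all 3 classical chains, which held for 24.1% of all genes. H2-DMb2 (0.090 ± 0.59, SE) and H2-Oa (0.98 ± 0.73, SE) overlapped between the diets. The median log2 fold change was 1.47 for the members and 0.0036 for all genes.

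This count depended on the libraries and the tool. It was 7 with all 12 libraries (9.05% of all genes called higher), 7 with WT CD replicates 2 and 3 (17.2% of all genes) and 7 with DESeq2 (12.7% of all genes), each time the 4 genes above and the 3 classical chains. Leaving out WT CD replicate 1 gave 2 calls while 14.5% of all genes were called higher. Leaving out WT CD replicate 2 gave 1 (3.93% of all genes), leaving out WT HFD replicate 2 gave 2 (5.35%), leaving out WT HFD replicate 3 gave 1 (4.7%), and leaving out replicate 2 (9.04%) or replicate 3 (7.28%) of HoipA-KO HFD gave 6. H2-DMb1 was called in each of these fits. Of 21 alternatives, Cd74 lost its call in 9, and Ciita and H2-DMa in 3 each. For Cd74 these included the fits without WT HFD replicate 2 or 3, without any one HoipA-KO CD library or without HoipA-KO HFD replicate 1. Its edgeR adjusted p was 0.0543 to 0.142 in them. This comparison and that of the genotypes on CD share the WT CD libraries, so like values in the 2 are not independent of each other.

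In HoipA-KO mice HFD changed no member past the threshold. No member was called by edgeR, DESeq2 called none, and edgeR called 0% of all genes in this comparison (9 genes by DESeq2). None of the members had an unadjusted p under 0.05 in edgeR, against 2.25% of all genes. The median log2 difference of the members was 0.37, and the largest was 0.65 for H2-Eb1 (95% interval -0.27 to 1.57). For Cd74 it was 0.48 (interval -0.35 to 1.31), for H2-DMb1 0.36 (interval -0.23 to 0.96) and for Ciita 0.37 (interval -0.53 to 1.28). HoipA-KO HFD replicate 3 was the highest of all 12 libraries for Cd74, Ciita, H2-DMa, H2-DMb1 and the 3 classical chains, and HoipA-KO HFD replicate 2 the lowest of its group for these 7 genes. Without replicate 3 of HoipA-KO HFD the log2 difference of Cd74 was 0.014.

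HoipA-KO mice on CD were also set against WT mice on HFD. No member was called by edgeR, against 15.8% of all genes in either direction. None had an unadjusted p under 0.05 in edgeR (33.5% of all genes) or was called by DESeq2 (26.9% of all genes). The members' median log2 difference was -0.058, and estimates ran from -0.28 for H2-Oa to 0.41 for H2-DMa. For H2-Ab1 the difference was -0.021 with a 95% interval of -0.90 to 0.85. All 9 members overlapped between these groups, while 46.6% of all genes did not. In the order of group means WT CD, without its replicate 3, was lowest for all 9 members, for H2-DMb2 and H2-Oa within the spread of the pools, and the other 3 groups overlapped for every member. With replicate 3 the WT CD mean of H2-DMb2 was 3.829 CPM, above those of WT HFD (3.655 CPM) and HoipA-KO HFD (3.546 CPM).

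The interaction of genotype and diet tested whether the effect of HoipA-KO differed between HFD and CD. All 9 estimates were below 0, with a median of -0.96, where the median of all genes was -0.011. H2-DMb1 alone was called (log2 -2.11 ± 0.41, SE, 95% interval -3.02 to -1.19, edgeR adjusted p = 0.0288), where edgeR called 3.58% of all genes in this direction. Ciita (-1.81 ± 0.62, SE, adjusted p = 0.129) and H2-DMa (-1.2 ± 0.42, SE, adjusted p = 0.131) had unadjusted p under 0.05 in edgeR, and DESeq2 called Ciita as well as H2-DMb1 (8.29% of all genes in this direction). An unadjusted p under 0.05 in edgeR was found for 22.9% of all genes. The interaction of Cd74 was -1.07 with a 95% interval of -2.33 to 0.18. The call for H2-DMb1 was lost when any one of 8 of the 11 libraries was left out (edgeR adjusted p = 0.0678 to 0.096), which were WT CD replicate 2, WT HFD replicates 2 and 3, all 3 of HoipA-KO CD and HoipA-KO HFD replicates 1 and 3, with the estimate between -2.35 and -1.83. In these fits nearly all calls of the table were lost as well, since 226 genes were called in either direction without WT HFD replicate 3 and 1 to 4 genes in each of the other 7, against 721 with 11 libraries.

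H2-DMb1 and H2-DMb2 encode alternative beta chains of H2-DM and are near copies of each other. Of the 31-base words in the transcripts of H2-DMb1, 31.4% also occur in other genes, mainly H2-DMb2, and 36.4% of those of H2-DMb2 occur elsewhere, mainly in H2-DMb1, so the split of reads between them is an estimate and uncertain. For the other 7 members the shared part was 0 to 1.41%. H2-DMb2 took 8.74% and 25.2% of the counts of both genes in WT CD (23.9% in replicate 3), 8.73%, 2.62% and 1.90% in WT HFD, 5.21%, 4.0% and 6.78% in CD-fed HoipA-KO, and 3.90%, 4.36% and 3.04% in HFD-fed HoipA-KO. Of the WT CD libraries with the high shares, replicate 2 had the highest epididymal sum (19100 CPM) and replicate 3 the highest spermatogenic sum (6816 CPM). The spermatogenic sum of replicate 2 was 298 CPM, and the epididymal sum of replicate 3 was 5.83 CPM. HoipA-KO HFD replicate 1, with an epididymal sum of 1608 CPM, had a share of 3.90%. The part of these transcripts in the share was not tested. With the counts of both genes summed, an alternative added after the data were seen, the log2 fold change was 2.00 on CD between genotypes (edgeR adjusted p = 0.00127), 2.25 between diets in WT (adjusted p = 0.00617) and -1.92 for the interaction (adjusted p = 0.0332).

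**Figure D3:**
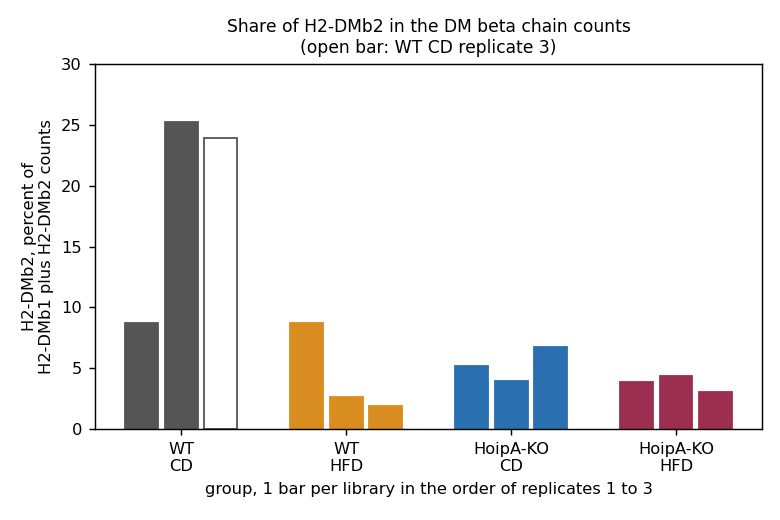
Share of H2-DMb2 in the counts of H2-DMb1 and H2-DMb2, in percent, with 1 bar per library in the order of replicates 1 to 3 and the open bar for WT CD replicate 3. WT CD replicates 2 and 3 stand at 25.2% and 23.9%, and the other 10 libraries at 1.90% to 8.74%.

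Ratios between members were used to ask whether pairs of genes changed unequally, since gene length cancels in them. With 4 ratios and 2 effects, 8 exact two-sided permutation tests were made over the 11 libraries, in which 200 permutations allow p = 0.005 at the smallest. None passed after Benjamini-Hochberg adjustment. The log2 ratio of H2-DMb2 to H2-DMb1 was lower on HFD than on CD by -1.40 averaged over the genotypes (exact permutation p = 0.05, adjusted p = 0.2). Its mean was -2.48 ± 1.28 (SD, n = 2) in WT CD and -4.765 ± 1.22 (n = 3) in WT HFD. In HoipA-KO it was -4.18 ± 0.40 (n = 3) on CD and -4.69 ± 0.275 (n = 3) on HFD. WT CD replicates 1 and 2 stood at -3.38 and -1.57, and WT HFD replicate 1 at -3.39. The log2 ratio of H2-Eb1 to H2-Ab1 was 0.14 ± 0.090 (SD, n = 2) in WT CD, 0.031 ± 0.052 (n = 3) in WT HFD, -0.13 ± 0.062 (n = 3) in CD-fed HoipA-KO and -0.024 ± 0.074 (n = 3) in HFD-fed HoipA-KO, a genotype difference of -0.16 (exact permutation p = 0.02, adjusted p = 0.16). The ratio of Ciita to Cd74 differed between genotypes by -0.070 (exact permutation p = 0.765, adjusted p = 0.965) and that of H2-Oa to H2-DMa by -0.79 (exact permutation p = 0.29, adjusted p = 0.544).

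Across the 11 libraries the classical chains and Cd74 had Pearson's r of 0.967 to 0.999 with each other on log2(CPM + 1), and Ciita had 0.916 to 0.956 with the classical chains, Cd74 and the H2-DM genes H2-DMa and H2-DMb1. H2-DMb2 had r of 0.042 to 0.18 with these 7 genes and 0.78 with H2-Oa. These values describe 11 points that fall into the 4 groups and share their libraries. H2-DMb2 and H2-Oa had their highest levels in the same library, WT HFD replicate 1 (6.30 and 2.09 CPM). The B cell genes Ms4a1 (6.44 CPM) and Cd79a (8.76 CPM), from a list of 9 B cell markers, also had their highest level there. Not all of that list did, since Cd22 was at 7.87 CPM there and at 25.2 CPM in HoipA-KO HFD replicate 3. The classical chains and Cd74 had their lowest WT HFD level in WT HFD replicate 1. Over all 12 libraries Ms4a1 ranged from 0.314 to 6.44 CPM. Whether B cells have a part in the levels of H2-DMb2 and H2-Oa was not tested.

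The other class II loci were low. H2-Ob, the beta chain partner of H2-Oa, was at 1.15 and 2.48 CPM in WT CD, 5.78, 3.06 and 3.92 CPM in WT HFD, 3.47, 1.40 and 2.66 CPM in CD-fed HoipA-KO and 2.49, 1.73 and 2.97 CPM in HFD-fed HoipA-KO. H2-Eb2 was at 0.146 to 0.996 CPM in the 12 libraries. Neither was called in any comparison. H2-Ea, which encodes the alpha chain that pairs with the product of H2-Eb1, had 0 counts in 11 libraries and 1 count in WT CD replicate 3, where 3 counts correspond to 0.0524 to 0.0996 CPM per library. Mouse strains of some H2 haplotypes are known to carry no functional H2-Ea, and the haplotype of these mice is not given in the sources used here.

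Of 9 tested genes that process antigen and trim the invariant chain or tag class II molecules for degradation, 8 were higher in HoipA-KO than in WT on CD (median log2 fold change 2.74), 4 on HFD (median 1.01) and 6 in WT on HFD against CD (median 1.53), and none was lower. In these comparisons 18.9%, 4.2% and 9.35% of all genes were called higher. Ctss, cathepsin S, which makes the last cut of the invariant chain in antigen-presenting cells, was at 53.4 and 49.9 CPM in WT CD (33.8 in replicate 3), 300, 519 and 916 CPM in WT HFD, 2311, 2605 and 2049 CPM in CD-fed HoipA-KO and 1212, 2463 and 1388 CPM in HFD-fed HoipA-KO. Every HoipA-KO pool was above every WT pool. Its log2 fold change was 5.53 ± 0.58 (SE, edgeR adjusted p = 0.000452) between genotypes on CD and 1.57 ± 0.41 (SE, adjusted p = 0.0389) on HFD, where the members did not pass. Lgmn, the asparaginyl endopeptidase, rose by 3.89 on CD and 1.64 on HFD on the log2 scale, and Ifi30, a thiol reductase that unfolds antigens, by 3.26 and 1.6. Over the 12 libraries the HFD count between genotypes was 1 of 9 (0.531% of all genes were called higher). Marchf1, a ligase that sends class II molecules to degradation, rose by 3.16 on CD, while its relative Marchf8 had a log2 difference of 0.070.

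Of 12 transcription factors listed for class II promoters and their regulation, 4 were higher in HoipA-KO on CD (median 0.12), 1 on HFD and 4 in WT on HFD (median 0.34), and none was lower. These counts stand beside 18.9%, 4.2% and 9.35% of all genes called higher. On CD these were Spi1 (log2 fold change 4.70), which encodes the myeloid factor PU.1, Irf8 (2.89), Nfya (2.19), a subunit of NF-Y, and Irf4 (0.97). On HFD it was Spi1 (1.42). Over the 12 libraries none of the 12 factors was called there, where 0.531% of all genes were called higher. Rfx5, which encodes the subunit of RFX that binds the X box, was at 8.80 to 12.5 CPM in the 12 libraries and had a log2 difference of 0.055 (edgeR adjusted p = 0.82) on CD. Rfxap (-0.35), Rfxank (-0.16), Nfyb (-0.55) and Nfyc (0.18) were not called either.

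Interferon-γ is the classical inducer of Ciita outside professional antigen-presenting cells. Ifng itself was at 0 to 0.196 CPM in the 12 libraries, with 3 counts worth up to 0.0996 CPM, and did not pass the filter. Of 8 tested genes of its pathway, Ifngr2 (log2 fold change 1.66) and Jak1 (0.67) were higher and the induced chemokine gene Cxcl9 (-1.92, edgeR adjusted p = 0.0122) was lower in HoipA-KO on CD, none passed on HFD, and Ifngr2 (1.06) was higher in WT on HFD. Cxcl9 was at 56.8 and 29.4 CPM in WT CD (15.0 in replicate 3) and at 17.7, 7.73 and 8.12 CPM in HoipA-KO CD. WT CD replicate 3 lay below one HoipA-KO pool, so the groups overlap over all 12 libraries. Of 7 costimulatory and related surface genes, Cd83 (3.24), Cd80 (2.48) and Cd40 (1.98) were higher in HoipA-KO on CD and Cd83 (2.53), Cd80 (1.53), Cd40 (1.43) and Cd86 (0.86) in WT on HFD, and none passed between genotypes on HFD. Of 8 CD4 T cell genes, Cd4 (2.27) and Cd28 (2.15) were higher in HoipA-KO on CD, Cd4 (1.87) on HFD (0 of 8 over the 12 libraries) and Cd28 (1.53) in WT on HFD. For the T cell and interferon lists alike, 2 of 8 genes were higher on CD, which is near the 18.9% of all genes. Beside the lists of this paragraph, 4.2% of all genes were called higher between genotypes on HFD and 9.35% in WT on HFD. On CD 18.8% of all genes were called lower between genotypes. Cd3e, which all T cells carry, was at 0.693 to 2.58 CPM with log2 differences of 0.96 on CD and 0.52 on HFD that did not pass. Cd4 is also made by some macrophages and dendritic cells.

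**Figure D4:**
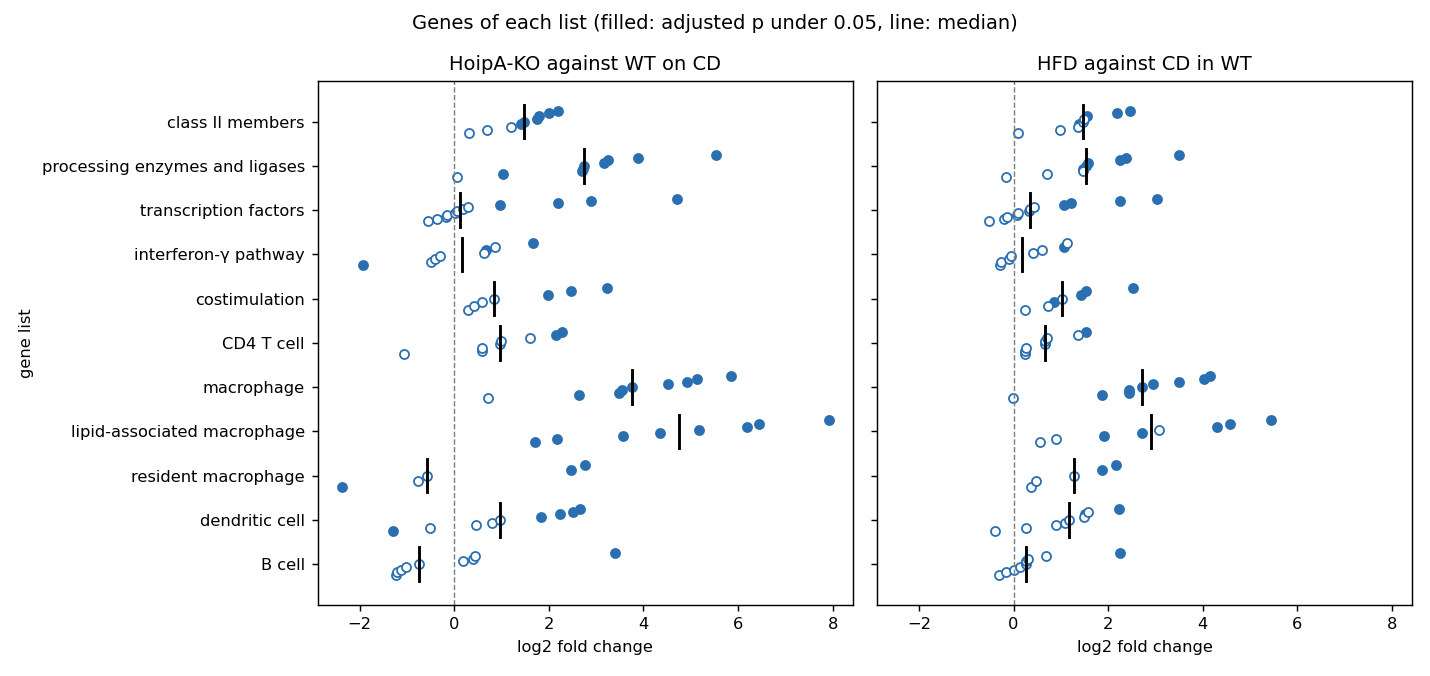
Log2 fold changes (x axis) of the genes of 11 lists in HoipA-KO against WT on CD and in HFD against CD in WT, with filled points where the edgeR adjusted p was under 0.05 and a line at the median of each list. On CD the medians are 1.47 for the 9 class II members, 2.74 for processing enzymes and ligases, 3.75 for macrophage markers, 0.97 for dendritic cell markers and -0.74 for B cell markers.

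In the comparisons where members were called higher, so were most macrophage markers, fewer dendritic cell markers and 1 B cell marker. The median log2 fold changes on CD were 3.75, 0.97 and -0.74 for these lists and 1.47 for the members. The values of the markers are given here, and their part in the members' levels was not tested. Of all genes, 18.9% were called higher in HoipA-KO on CD, 4.2% on HFD (0.531% over the 12 libraries) and 9.35% in WT on HFD. Of 9 macrophage markers, 8 were higher in HoipA-KO on CD (median log2 fold change 3.75), 4 on HFD (1.18, and 0 of 9 over the 12 libraries) and 8 in WT on HFD (2.71), and none was lower. Their summed level was 509 and 700 CPM in WT CD (411 in replicate 3), 1909 to 5707 CPM in WT HFD, 9260 to 12210 CPM in CD-fed HoipA-KO and 7168 to 11070 CPM in HFD-fed HoipA-KO. Adgre1, which encodes F4/80, was at 13.6 and 19.9 CPM in WT CD, 102 to 526 CPM in WT HFD, 324 to 667 CPM in CD-fed HoipA-KO and 416 to 646 CPM in HFD-fed HoipA-KO. On CD it rose by a log2 fold change of 4.92, next to Cd68 (5.86) and Itgam (5.13). All 8 markers of lipid-associated macrophages were higher in HoipA-KO on CD (median 4.76), led by Gpnmb (7.92), Itgax (6.44) and Trem2 (6.20), 3 were higher on HFD (0 of 8 over the 12 libraries), and 5 in WT on HFD (median 2.90). Of 5 markers of resident macrophages, Mrc1 (2.76) and Folr2 (2.46) were higher and Cd163 (-2.37) lower in HoipA-KO on CD, Cd163 (-1.82) and Timd4 (-1.85) were lower on HFD (1 of 5 over the 12 libraries), and Folr2 (2.17) and Mrc1 (1.87) were higher in WT on HFD. Of all genes, 18.8% were called lower in HoipA-KO on CD and 7.62% on HFD.

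Dendritic and B cell markers were lower in level and moved less uniformly. Of 9 dendritic cell markers, Ccr7 (2.65), Flt3 (2.51), Clec10a (2.23) and Batf3 (1.84) were higher and Siglech (-1.29) lower in HoipA-KO on CD, Clec10a (1.16) was higher on HFD, and Flt3 (2.24) and Clec10a (1.51) in WT on HFD. Over the 12 libraries 3 of 9 were higher on CD and 0 of 9 on HFD. Beside the dendritic and B cell lists, 18.9%, 4.2% and 9.35% of all genes were called higher in these comparisons, and 18.8% lower on CD. Flt3 was at 0.707 CPM in both WT CD libraries of the fit, at 3.44 CPM in WT CD replicate 3 and at 2.33 to 5.41 CPM in the other groups. Zbtb46, a marker of classical dendritic cells that endothelium also carries, was at 8.78 to 19.4 CPM with a log2 difference of -0.51 on CD that did not pass. The summed level of the dendritic cell list was 38.9 and 70.4 CPM in WT CD, 98.4 to 148 CPM in WT HFD, 158 to 197 CPM in CD-fed HoipA-KO and 162 to 264 CPM in HFD-fed HoipA-KO. Of 9 B cell markers 1 was higher, Cd22 (3.39 on CD between genotypes and 2.25 in WT on HFD), and the list's median was -0.74 on CD. The defining gene Ms4a1 had a log2 difference of -1.23 there that did not pass. Of 9 adipocyte markers 8 were lower in HoipA-KO on CD (median -1.82), with Cidea (-4.95), Adipoq (-2.64) and Fabp4 (-1.82) as examples, and 9 on HFD (median -2.03). In these comparisons 18.8% and 7.62% of all genes were called lower. Over the 12 libraries 7 of 9 were lower on CD (19.1% of all genes) and 5 of 9 on HFD (2.25% of all genes).

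On CD the members' log2 differences between genotypes (0.32 to 2.20) lay below those of 8 of the 9 macrophage markers, from 2.65 for C1qa to 5.86 for Cd68, with Mertk at 0.71. On log2(CPM + 1), the mean of H2-Aa, H2-Ab1, H2-Eb1 and Cd74 exceeded the mean of the 9 macrophage markers by 2.37 ± 0.021 (SD, n = 2) in WT CD, by 1.30 ± 0.30 (n = 3) in WT HFD, by 0.046 ± 0.45 (n = 3) in CD-fed HoipA-KO and by 0.51 ± 0.91 (n = 3) in HFD-fed HoipA-KO. The WT CD values lie above all others, and the 2 HoipA-KO groups overlap. Against the 9 dendritic cell markers the same difference was 5.72 ± 0.031 in WT CD, 6.36 ± 0.44 in WT HFD, 6.35 ± 0.15 in CD-fed HoipA-KO and 6.73 ± 0.57 in HFD-fed HoipA-KO. Within HoipA-KO HFD the class II mean was highest in replicate 3 (10.2) and lowest in replicate 2 (8.72), while the macrophage mean was highest in replicate 2 (9.21) and the dendritic cell mean in replicate 3 (3.00).

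**Figure D5:**
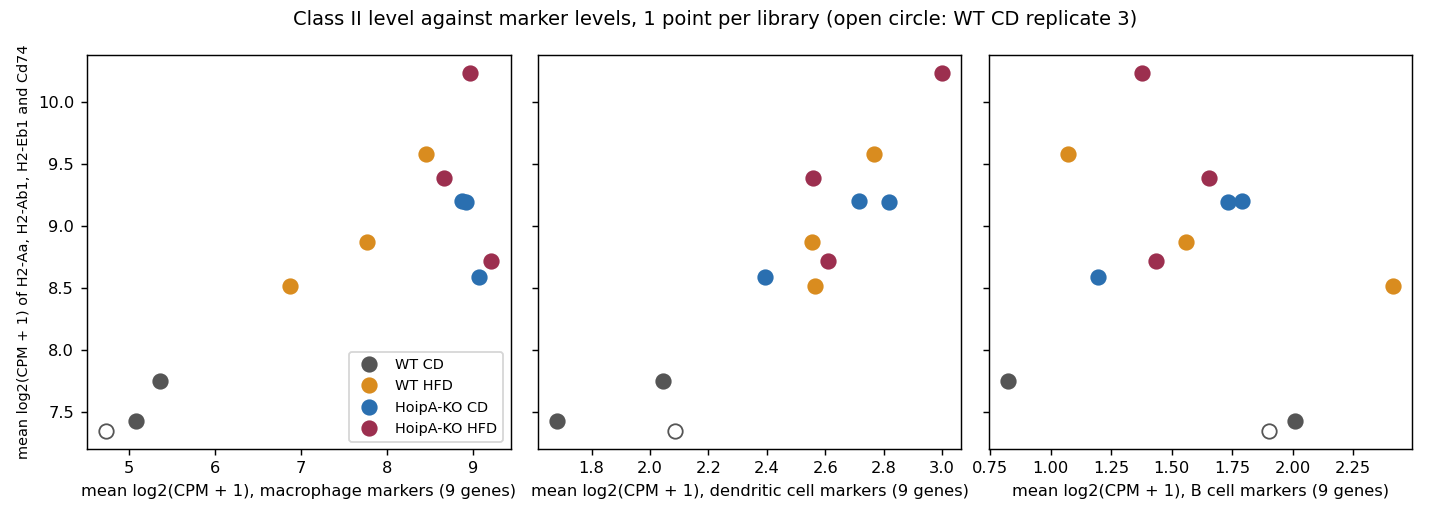
Mean log2(CPM + 1) of H2-Aa, H2-Ab1, H2-Eb1 and Cd74 (y axis) against the mean of 9 macrophage, 9 dendritic cell and 9 B cell markers (x axes), with 1 point per library and the open circle for WT CD replicate 3. WT CD lies lowest on the y axis at 7.34 to 7.75, and the 6 HoipA-KO libraries span 8.58 to 10.2 on it while their macrophage means stay within 8.66 to 9.21.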

How the data were processed

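Per the labels and methods, RNA of 3 mice was pooled per library, poly-A selected and sequenced with a stranded kit. The authors trimmed reads (Trim Galore 0.6.7), aligned them (STAR 2.7.10a), estimated counts per gene (Salmon 1.5.2) and deposited these estimated counts without normalization, together with CPM values and DESeq2 results of their own comparisons, which were not used. The labels give GRCm38. Counts were rounded, low genes were dropped by filterByExpr, libraries were scaled by TMM, and 1 model of the 4 groups was fitted with edgeR 4.0.16 in R 4.3.3 (quasi-likelihood test, Benjamini-Hochberg over all genes, 0.05). Fits used 11 libraries (WT CD replicate 3 left out), and 12 as an alternative. CPM values use TMM over 12 libraries. Alternatives were other scalings and filters, other WT CD libraries, a replicate block, DESeq2 1.42.0 and each library left out. Scripts were tested on simulated data. Members, gene lists and tests were chosen with earlier results of these data known. The named genes are the 9 members, the other class II loci, up to 3 genes per list with the largest called rise or fall, defining markers and the 10 genes most like the classical chains and Cd74. Exonic lengths, positions and shared words come from the GRCm38 annotation. Depth limits each library to about 0.0524 to 0.0996 CPM (3 counts, counting error only). Values of 1 B cell marker are not reported here.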

Additional observations from a re-analysis of the deposited data

Results flagged for a closer look

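One result was set apart among the members because the genotype effect differed between the diets by a test of the difference itself. It was not particular to H2-DMb1. The interaction was also called lower for 6 of 9 macrophage markers (median -2.52) and 4 of 8 markers of lipid-associated macrophages (median -2.77). Of the processing genes 2 of 9 were called lower (median -1.73), of the dendritic cell markers 1 of 9 and of the B cell markers 0 of 9. Of all genes 3.58% were called in this direction. The log2 fold change of H2-DMb1 between HoipA-KO and WT was 2.20 on CD and 0.091 on HFD, and the interaction was -2.11 (95% interval -3.02 to -1.19, adjusted p = 0.0288 in edgeR's test). H2-DMb1 was at 15.5 and 17.1 CPM in WT CD and at 63.3 to 133 CPM in all 9 libraries of the other groups. Because H2-DMb1 shares sequence with H2-DMb2, the summed counts of both genes were tested as well, and the interaction was then -1.92 (edgeR adjusted p = 0.0332). The call for H2-DMb1 was lost when any one of 8 of the 11 libraries was left out, as were nearly all calls of the whole table. Its estimate then lay between -2.35 and -1.83. Of the 2 WT CD libraries in the fit, replicate 2 held 19100 CPM of epididymal markers.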

How the results depend on the processing

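The comparisons with WT CD rest on 2 libraries, and leaving 1 of them out makes the fit assume that the lone pool varies like the other groups. H2-Oa had 13 to 100 and H2-DMb2 67 to 291 counts per library, the fewest of the members. Of 1140 comparisons of a single member's value with the value under an alternative, 1034 kept their direction and their side of the threshold, 35 lost and 18 gained a call, and 53 changed sign, all 53 on values that were not called. The causes of the changes below were not tested, except that a fit without a library holds fewer samples.

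The number of members called higher between genotypes on CD was 6, and 3 to 7 when single libraries were left out, where 15.3% to 18.5% of all genes were called higher. In WT on HFD against CD it was 4 (9.35% of all genes). It was 7 with all 12 libraries (9.05%), with WT CD replicates 2 and 3 (17.2%) and with DESeq2's test (12.7%). It was 3 with no filter on low counts (4.52%), and 1 to 6 when single libraries outside WT CD were left out (4.7% to 9.04%). For the interaction 1 member was called lower (3.58% of all genes), against 2 with DESeq2's test (8.29%). It was 0 to 1 when single libraries outside WT CD were left out (0.00546% to 5.17%). The number called was 0 in the remaining comparisons under all alternatives. Over the whole table, edgeR called 2179 genes between genotypes on HFD with 11 libraries and 503 with 12, and 2920 and 999 for HoipA-KO CD against WT HFD. DESeq2 called 4723 genes for HFD against CD in WT, where edgeR called 2731, and 2415 for the interaction, where edgeR called 721. The median log2 difference of all genes between genotypes on CD was -0.055 with 11 libraries and -0.21 with 12.

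Sign changes concerned H2-DMb2 and H2-Oa in most cases. The log2 difference of H2-DMb2 became -0.24 between genotypes on CD with WT CD replicates 2 and 3, and 0.071 between genotypes on HFD when scaled by library size only. That of H2-Oa between genotypes on HFD became 0.0055 with DESeq2's size factors, 0.090 by library size only, 0.010 with no filter, 0.0084 with at least 10 counts in every library, and 0.0087 with DESeq2's test. For HFD against CD in WT, H2-DMb2 was at -0.11 with 12 libraries, -0.46 with WT CD replicates 2 and 3, -0.022 with no filter and -0.036 with protein-coding genes only. H2-Ab1 in HoipA-KO CD against WT HFD was at 0.0047 with no filter. The interaction of H2-DMb2 was 0.20 with WT CD replicates 2 and 3. The log2 ratio of H2-Eb1 to H2-Ab1 differed by 0.011 between diets over 12 libraries. Of the 10 genes most like the classical chains and Cd74, 4 were among the first 10 over 12 libraries and 5 by Spearman's rho.

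When single libraries were left out, the lowest and highest log2 values of the members that changed sign were as follows. Between genotypes on CD, H2-DMb2 ranged from -0.29 to 1.41. Between genotypes on HFD, H2-Aa ranged from -0.016 to 0.88, H2-Eb1 from -0.055 to 0.85, Ciita from -0.29 to 0.69, H2-DMb1 from -0.25 to 0.31, H2-DMb2 from -0.29 to 0.62 and H2-Oa from -0.32 to 0.49. For HFD against CD in WT, H2-DMb2 ranged from -0.56 to 1.17. For HFD against CD in HoipA-KO, Ciita ranged from -0.10 to 0.66, H2-DMa from -0.20 to 0.37, H2-DMb2 from -0.49 to 0.074 and H2-Oa from -0.15 to 0.54. For HoipA-KO CD against WT HFD, H2-Aa ranged from -0.28 to 0.32, H2-Ab1 from -0.24 to 0.34, H2-Eb1 from -0.38 to 0.20, Cd74 from -0.0068 to 0.54, Ciita from -0.43 to 0.30, H2-DMb2 from -0.099 to 0.88 and H2-Oa from -0.55 to 0.22. The interaction of H2-DMb2 ranged from -1.43 to 0.30. Among the ratios, Ciita to Cd74 ranged from -0.26 to 0.12 between genotypes, H2-Eb1 to H2-Ab1 from -0.036 to 0.028 between diets and H2-Oa to H2-DMa from -0.37 to 0.49 between diets.

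Libraries of different groups share replicate numbers. The deviations of same-numbered libraries from their group means correlated at -0.371 to 0.499, over 0.1 in 6 of 15 pairs, against 8 of 30 pairs with other numbers, and 5 of 11 libraries correlated best with their own number, so the numbers were not taken as a pairing. With the number as a replicate block the members called were 6 between genotypes on CD, 0 on HFD, 4 for diet in WT, 0 for diet in HoipA-KO, 0 for HoipA-KO CD against WT HFD and 1 for the interaction, the same counts as without it, while the block lowered the genes called over the whole table from 6947 to 5893 on CD, from 2731 to 1502 for diet in WT and from 721 to 377 for the interaction. The block turned H2-DMb2 for diet in WT to -0.022 and H2-Ab1 in HoipA-KO CD against WT HFD to 0.022.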

Other observations

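Over the 11 libraries, the 10 genes with a mean of at least 10 CPM whose log2(CPM + 1) was most like the mean of H2-Aa, H2-Ab1, H2-Eb1 and Cd74 were Fgd2 (Pearson's r = 0.974), Sned1 (0.958), Cxcl12 (0.955), Slamf9 (0.951), Asap3 (0.949), Clec4b1 (0.944), Phf11d (0.940), Tmem198b (0.939), Chp2 (0.936) and Psmb8 (0.935), out of 9863 genes. The points fall into the 4 groups and share their libraries, and no p is given. Fgd2, an exchange factor for Cdc42, was at 6.89 and 7.11 CPM in WT CD (10.9 in replicate 3), 13.6, 13.9 and 19.7 CPM in WT HFD, 17.9, 14.8 and 21.0 CPM in HoipA-KO CD and 22.3, 15.7 and 34.2 CPM in HoipA-KO HFD, so that HoipA-KO HFD replicate 3 was highest, as for the class II genes. Psmb8 encodes an immunoproteasome subunit of the class I pathway and lies in the same region of chromosome 17. It was at 24.9 and 35.7 CPM in WT CD (16.1 in replicate 3) and at 49.6 to 101 CPM in the other groups. Clec4b1 encodes a C-type lectin and was at 1.44 and 2.10 CPM in WT CD (1.36 in replicate 3) and at 5.25 to 24.5 CPM in the other groups. Of the lists, Cd83 (r = 0.914) and Folr2 (r = 0.901) ranked highest, at places 23 and 36, while Ctss was at place 895 (r = 0.736). The macrophage markers ran from Fcgr1 at place 51 (r = 0.889) to Mertk at place 3559 (r = 0.315), with Adgre1 at place 286 (r = 0.814).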
